A study of Mus musculus with 40 samples.

Results

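Pax5 signal was read on these arrays by 1 probe set, 1421765_PM_at, the only one of 45141 whose platform annotation gives the symbol Pax5 and no other. Its log2 signal was highest in cells with PAX5-Δ2-6 and PAX5-P80R and lowest in cells with the empty vector. Only 2 of the 15 differences between pairs of constructs passed a test adjusted over all probe sets, and both calls were lost under other settings. The sources used here do not say which part of the transcript the probes read, or whether they read the transduced constructs.

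Pax5 encodes a transcription factor of the paired box family that sets and keeps B cell identity: it turns on genes of the B cell receptor pathway and holds genes of other lineages silent. Its paired domain binds DNA, its octapeptide motif binds co-repressors of the Groucho family, and its end carries activating and inhibitory stretches. As B cells become plasma cells the gene is switched off, and plasmacytomas, tumours of plasma cells, keep that state.

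The cells were J558LuM, a mouse plasmacytoma line, and all samples are of this 1 line. Constructs were PAX5-P80R (a change in the paired domain), PAX5-Δ2-6 (named only by that label), PAX5-G183V or PAX5-G183S (changes in the octapeptide motif), PAX5-WT and the empty vector MIR. Plate 2 held the 6 arrays of PAX5-P80R and the 6 of PAX5-Δ2-6. The 7 arrays of PAX5-G183V, PAX5-G183S, PAX5-WT and MIR were split, with 3 on plate 2 and 4 on plate 1, and RNA of all 6 groups came from 2 isolation batches. No transduction number was used more than once, and the p-values reflect variation from one transduction of the line to the next. PAX5-P80R, PAX5-Δ2-6 and PAX5-G183V had the numbers 1 to 9 and 46 to 57. PAX5-G183S, PAX5-WT and MIR had 34 to 44 and 58 to 66, apart from 1 PAX5-G183S array with number 45, so comparisons between these sets of constructs also run between transduction series. Isolation batch 1 held the numbers up to 44 and isolation batch 2 those from 45 on. RNA isolation and transduction series therefore cannot be told apart.

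Per its title, the series deals with germline PAX5 alterations in pre-B cell leukaemia. Medians of log2 signal per array ran from 4.21 to 4.27, and Pearson's r between arrays lay between 0.989 and 0.997. Plasma cell markers were bright: the 6 measured averaged 8.33 (Ly6c1) to 13.2 (Xbp1). They came from 9 listed names, of which Igj is a synonym of Jchain. Against MIR, 4 of the 6 fell in PAX5-G183V (Jchain, Ly6c1, Tnfrsf17 and Xbp1), 2 in PAX5-G183S and 2 in PAX5-WT (Ly6c1 and Xbp1 in both), and 0 were called in PAX5-P80R and PAX5-Δ2-6 (limma). Over all genes, 3.64%, 2.43%, 2.84%, 2.47% and 0% fell, in that order of constructs. The part of these markers in the Pax5 results was not tested. Of 20 measured markers of fibroblasts, T cells, myeloid and erythroid cells, 4 averaged above the array medians, Cd3g at 8.29, Csf1r at 5.28, Cd4 at 4.46 and Hba-a1 at 4.28. None of the 7 fibroblast markers differed between a construct and MIR at an adjusted p under 0.05 (limma). They could show cells that produce virus only if those are mouse fibroblasts, which was not tested. In bulk RNA, fewer cells with a transcript and less transcript per cell cannot be told apart.

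In RefSeq on GRCm38.p6, Pax5 lies on the minus strand of chromosome 4, chr4:44524748-44710694, over 185947 bases. The 250 bases before its annotated start, chr4:44710695-44710944, are shown from the reference genome, not as read from these cells. Whether this stretch controls Pax5 in these cells was not tested. The arrays do not read this stretch. It is given on the gene's strand with CpG pairs in capitals.
Pax5 upstream: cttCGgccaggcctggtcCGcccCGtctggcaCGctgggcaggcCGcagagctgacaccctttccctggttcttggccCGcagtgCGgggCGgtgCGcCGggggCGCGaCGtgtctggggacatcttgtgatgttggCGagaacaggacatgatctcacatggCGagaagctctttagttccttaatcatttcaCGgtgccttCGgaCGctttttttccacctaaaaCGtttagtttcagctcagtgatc
It holds 19 CpG pairs, and 80.3% of 32851 RefSeq promoters of the same length hold fewer. On both strands, the E-box letters CANNTG match at 1 place, 94 bases before the start, and 66.2% of promoters hold them. The letters TATAAA, held by 12.4% of promoters, are not in this window.

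Pax5 signal lay near the middle of all probe sets. It averaged 4.80 over the 40 arrays, beside array medians of 4.21 to 4.27. A rank near the middle does not show that a transcript is expressed, and whether Pax5 stood above background was not tested. The share of probe sets below it ran from 42.7% (PAX5-G183S replicate 5) to 68.3% (PAX5-Δ2-6 replicate 5). In MIR arrays it ran from 48.4% to 57.5%. Pax5 in MIR replicate 3 and PAX5-G183S replicate 5 lay below the median of its array. The highest Pax5 signals were those of PAX5-Δ2-6 and PAX5-P80R arrays. In PAX5-P80R cells the 6 log2 signals ran from 4.53 to 5.41 with a median of 4.95, and in PAX5-Δ2-6 cells the 6 ran from 4.68 to 5.90 with a median of 5.00. The highest 2 signals of all 40 arrays, 5.90 and 5.48, were PAX5-Δ2-6 replicates 5 and 6. In PAX5-G183V cells the 7 signals lay close together, from 4.75 to 5.11 with a median of 4.85. In PAX5-G183S cells they lay far apart, from 3.97 to 5.14 with a median of 4.68, and replicate 5 was the lowest of all 40 arrays. PAX5-WT signals ran from 4.36 to 5.14 with a median of 4.81, and MIR signals from 4.19 to 4.63 with a median of 4.51. All PAX5-Δ2-6 and all PAX5-G183V arrays lay above every MIR array, as did 5 of 6 PAX5-P80R, 4 of 7 PAX5-G183S and 5 of 7 PAX5-WT arrays. Among all probe sets, such a gap without overlap to the higher side was seen for 0.0953% in PAX5-Δ2-6 against MIR and for 1.07% in PAX5-G183V against MIR.

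**Figure D1:**
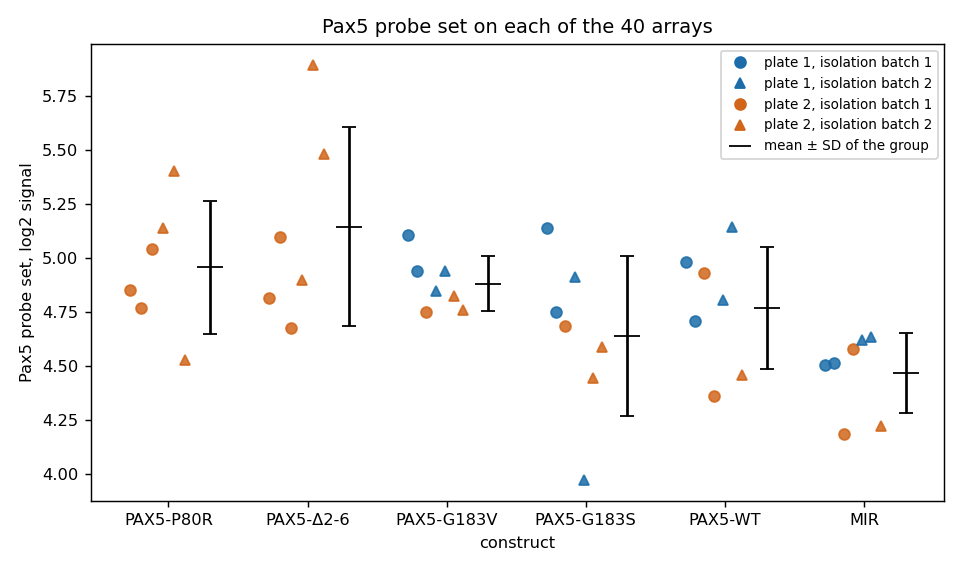
Log2 signal of the Pax5 probe set (vertical axis) on each array, by construct (horizontal axis). Colour gives the plate, shape the RNA isolation batch, and the bars the mean and SD of the 6 or 7 arrays of a group. All 6 PAX5-Δ2-6 and all 7 PAX5-G183V arrays lie above the highest MIR array at 4.63.

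The first comparisons ask whether a construct moves Pax5 signal relative to the empty vector. Pax5 averaged 4.96 ± 0.31 in PAX5-P80R cells (SD, n = 6) and 4.47 ± 0.19 in MIR cells (SD, n = 7). With plate and isolation batch in the fit, the difference was 0.61 ± 0.17 on the log2 scale (SE), or 1.53-fold, with a limma adjusted p of 0.0350. This was the only call for Pax5 against MIR, in a comparison that called 2.55% of all probe sets. The call was lost without PAX5-P80R replicate 3, 4 or 5 or without MIR replicate 3 or 7, at limma adjusted p between 0.0635 and 0.108 and differences between 0.53 and 0.59. It was also lost on plate 2 alone, where the difference was 0.61 (limma adjusted p = 0.267), and with only the 2 groups in the fit, where it was 0.62 (limma adjusted p = 0.116).

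Pax5 stood further above MIR in PAX5-Δ2-6 cells, without a call. The mean was 5.14 ± 0.46 (SD, n = 6), and the difference from MIR was 0.80 ± 0.17 (SE; 95% interval 0.46 to 1.14), or 1.74-fold. By unadjusted p, 2.47e-05, the Pax5 probe set ranked 2 of 45141 in this comparison. The limma adjusted p was 0.354, in a comparison in which 0 probe sets (0%) were called and 3192 had an unadjusted p under 0.05. When 3 series of transduction numbers replaced the isolation batch in the fit, the difference was 0.97 with a limma adjusted p of 0.00402. That fit draws comparisons between the sets of constructs from the numbers 45 to 66.

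Estimated differences from MIR were smaller for the octapeptide constructs and PAX5-WT, in comparisons that called 5.73% (PAX5-G183V), 3.73% (PAX5-G183S) and 3.85% (PAX5-WT) of all probe sets. Pax5 averaged 4.88 ± 0.13 in PAX5-G183V cells (SD, n = 7), and its difference from MIR was 0.41 ± 0.15 (SE; 95% interval 0.11 to 0.71; limma adjusted p = 0.103). Other settings called it, with a difference of 0.42 and a limma adjusted p of 0.00170 when only these 2 groups were fitted, and 0.56 with an adjusted p of 0.0287 with 3 transduction series. In PAX5-G183S cells the mean was 4.64 ± 0.37 (SD, n = 7) and the difference 0.17 ± 0.15 (SE; 95% interval -0.13 to 0.47; limma adjusted p = 0.667). Without PAX5-G183S replicate 1 that difference was 0.088, and without replicate 5 it was 0.30. In PAX5-WT cells the mean was 4.77 ± 0.28 (SD, n = 7) and the difference 0.30 ± 0.15 (SE; 95% interval 0.0030 to 0.61), or 1.23-fold, with a limma adjusted p of 0.358. PAX5-WT and MIR were transduced in the same series, and the difference was 0.30 in isolation batch 1 and 0.31 in isolation batch 2. These comparisons share the MIR arrays.

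**Figure D2:**
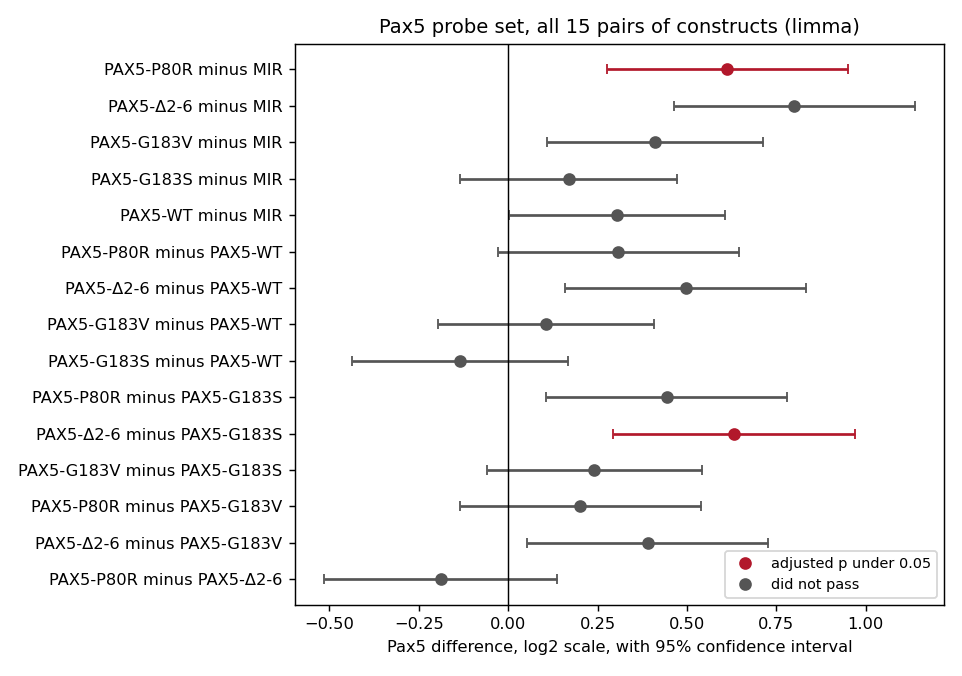
Difference of the Pax5 probe set on the log2 scale (horizontal axis) for each of the 15 pairs of constructs, with its 95% confidence interval. Red marks the 2 pairs with a limma adjusted p under 0.05, PAX5-P80R minus MIR at 0.61 and PAX5-Δ2-6 minus PAX5-G183S at 0.63.

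A further question is whether the altered constructs differ from PAX5-WT, and 0 of 4 did by limma, where 4.09% (PAX5-P80R), 4.25% (PAX5-Δ2-6), 0.0288% (PAX5-G183V) and 0.0332% (PAX5-G183S) of all probe sets were called. The difference was 0.31 ± 0.17 for PAX5-P80R (SE; 95% interval -0.03 to 0.65; limma adjusted p = 0.364). For PAX5-Δ2-6 it was 0.50 ± 0.17 (SE; 95% interval 0.16 to 0.83; limma adjusted p = 0.0875), with an unadjusted p of 0.00500, the only one of the 4 under 0.05. That difference passed without PAX5-Δ2-6 replicate 3 (0.59; limma adjusted p = 0.0371) and with 3 transduction series (0.67; limma adjusted p = 0.0269). The octapeptide constructs lay nearer to PAX5-WT, at 0.11 ± 0.15 for PAX5-G183V (SE; 95% interval -0.20 to 0.41) and -0.14 ± 0.15 for PAX5-G183S (SE; 95% interval -0.44 to 0.17). These intervals still hold differences of 0.4 in size. Without PAX5-G183S replicate 5, PAX5-G183S minus PAX5-WT was -0.0039.

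Among the altered constructs, Pax5 was higher in PAX5-Δ2-6 than in PAX5-G183S cells, by 0.63 ± 0.17 (SE; limma adjusted p = 0.0186), where 4.36% of all probe sets were called. The group ranges overlapped, and 2 of 6 PAX5-Δ2-6 arrays lay above every PAX5-G183S array. The difference was 0.14 in isolation batch 1 alone (limma adjusted p = 0.808), and the call was lost without PAX5-Δ2-6 replicate 5 or 6, at 0.48 and 0.57. PAX5-G183V and PAX5-G183S, changes of the same residue to valine and to serine, differed by 0.24 ± 0.15 (SE; 95% interval -0.06 to 0.54; limma adjusted p = 0.739), in a comparison with 0 calls and 3399 probe sets at an unadjusted p under 0.05. PAX5-P80R minus PAX5-G183S was 0.44 ± 0.17 (SE; limma adjusted p = 0.129; 4.47% of probe sets called). PAX5-P80R, PAX5-Δ2-6 and PAX5-G183V shared their transduction series. Within that set, PAX5-P80R minus PAX5-Δ2-6 was -0.19 ± 0.16 (SE; 95% interval -0.51 to 0.14), PAX5-P80R minus PAX5-G183V was 0.20 ± 0.17 (SE; 95% interval -0.14 to 0.54) and PAX5-Δ2-6 minus PAX5-G183V was 0.39 ± 0.17 (SE; 95% interval 0.05 to 0.73). None of these 3 passed, at limma adjusted p of 0.772, 0.618 and 0.246, while 1.77%, 2.72% and 3.07% of all probe sets did. Without PAX5-Δ2-6 replicate 5, PAX5-P80R minus PAX5-Δ2-6 was -0.038 and PAX5-Δ2-6 minus PAX5-G183V was 0.24.

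The order of the fitted Pax5 levels was PAX5-Δ2-6 (5.25 ± 0.13, SE), PAX5-P80R (5.07 ± 0.13), PAX5-G183V (4.86 ± 0.11), PAX5-WT (4.76 ± 0.11), PAX5-G183S (4.62 ± 0.11) and MIR (4.45 ± 0.11). No neighbours in this order differed at an adjusted p under 0.05. Of the 15 pairs, 8 had an unadjusted p under 0.05 in limma. An exact two-sided permutation test that moved arrays within plates and isolation batches gave 4 pairs with p under 0.05, and 1 after adjustment over the 15 pairs. That pair was PAX5-G183V minus MIR, with an exact p of 0.00309, the smallest it allowed, and 0.0463 after adjustment. PAX5-P80R minus MIR and PAX5-Δ2-6 minus MIR could be permuted on plate 2 alone, with 3 MIR arrays, where the smallest possible exact p is 0.025. Both reached it, and both stood at 0.104 after adjustment.

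Pax5 signal was lower on plate 2 in each of the 4 groups that had arrays on both plates. The plate 2 and plate 1 means were 4.78 and 4.96 for PAX5-G183V, 4.57 and 4.69 for PAX5-G183S, 4.58 and 4.91 for PAX5-WT, and 4.33 and 4.57 for MIR. In the fit, plate 2 minus plate 1 was -0.22 ± 0.11 (SE; 95% interval -0.43 to -0.0027), with an unadjusted p of 0.0474 and a limma adjusted p of 0.269, beside 2.78% of probe sets called. PAX5-P80R and PAX5-Δ2-6 had no plate 1 arrays. Without terms for plate and isolation batch, PAX5-P80R minus MIR was 0.49 (limma adjusted p = 0.118). On plate 2 alone, PAX5-Δ2-6 minus MIR was 0.79.

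RNA isolation batches differed for 15.2% of probe sets, and for Pax5 by 0.04 ± 0.09 (SE, isolation batch 2 minus 1; 95% interval -0.14 to 0.22). Isolation batches also differ in transduction numbers, and RNA isolation and transduction cannot be told apart here. The groups went apart in direction. Isolation batch 2 and isolation batch 1 means were 5.43 and 4.86 in PAX5-Δ2-6 cells, and 4.48 and 4.86 in PAX5-G183S cells. In PAX5-P80R cells they were 5.02 and 4.89, and in MIR cells 4.49 and 4.45. The PAX5-Δ2-6 minus MIR difference was 1.07 ± 0.22 in isolation batch 2 (SE; limma adjusted p = 0.0213) and 0.52 ± 0.21 in isolation batch 1 (SE; limma adjusted p = 0.974), in a fit of all arrays. With the isolation batch 2 arrays fitted alone it was 1.06 and did not pass (limma adjusted p = 0.156). The test of the change between batches gave 0.55 ± 0.29 (SE), with an unadjusted p of 0.0690 and a limma adjusted p of 0.670. For PAX5-G183S the difference from MIR was 0.02 ± 0.20 in isolation batch 2 and 0.38 ± 0.20 in isolation batch 1 (SE), a change of -0.36 ± 0.28. For PAX5-P80R the change was 0.12 ± 0.29, for PAX5-G183V -0.07 ± 0.28 and for PAX5-WT 0.01 ± 0.28 (SE), and none of the 5 had an unadjusted p under 0.05 in limma. This test called 0.308%, 0.062%, 0.414%, 0% and 0.00665% of all probe sets in PAX5-P80R, PAX5-Δ2-6, PAX5-G183V, PAX5-G183S and PAX5-WT.

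**Figure D3:**
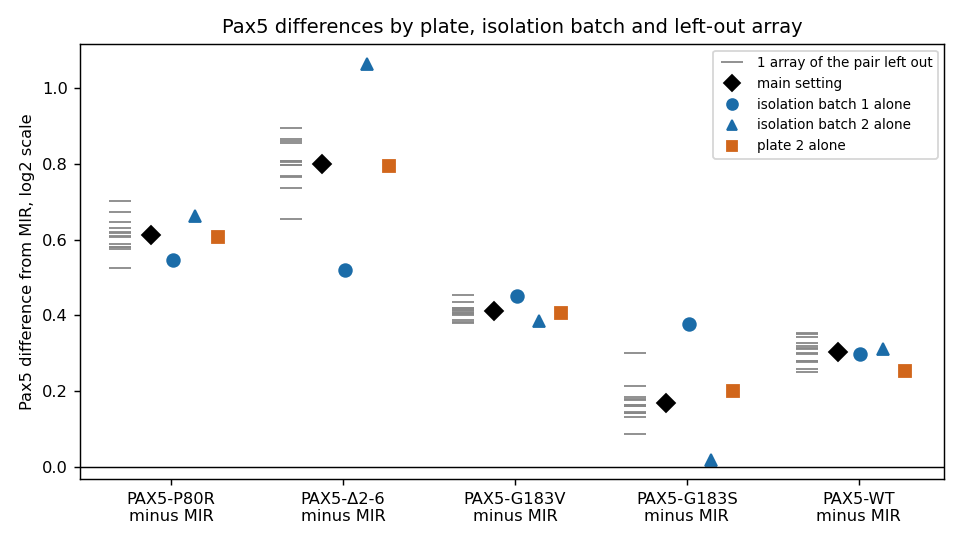
Pax5 difference from MIR on the log2 scale (vertical axis) for each construct (horizontal axis), in the fit of all arrays (black), in each isolation batch alone, on plate 2 alone, and with 1 array of the pair left out at a time (grey). All values lie above 0, and PAX5-Δ2-6 minus MIR has the widest gap between isolation batches, at 1.06 in batch 2 alone and 0.52 in batch 1 alone.

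Pax5 signal varied more between transductions of 1 construct than most probe sets did. The SD of its residuals, after construct, plate and isolation batch, was 0.296, against a median of 0.153, and 99.0% of probe sets had a smaller one. Among 5473 probe sets with a mean within 0.5 of that of Pax5, 97.7% had a smaller one. The residuals farthest from 0 were -0.78 in PAX5-G183S replicate 5 and 0.73 in PAX5-Δ2-6 replicate 5. No group held a single array apart from the rest by Dixon's ratio of gap to range.

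By Pearson's r over the 40 arrays, the genes most like Pax5 were Nob1 (r = 0.60, Spearman's rho = 0.68), which acts in ribosome maturation, Klf11 (r = 0.58, rho = 0.54), a Krüppel-like transcription factor, and Wif1 (r = 0.57, rho = 0.39), a secreted WNT inhibitor. Over residuals they were Cntnap2 (r = 0.65, rho = 0.65), a neurexin family cell adhesion protein, 4930507D05Rik (r = 0.64, rho = 0.61) and Eloa (r = 0.61, rho = 0.47), a subunit of elongin. These are the top of all single-gene probe sets on the same 40 arrays, given as a description, and the 2 sets of genes share none. Their mean signals were 9.68 (Nob1), 7.30 (Klf11), 3.23 (Wif1), 3.54 (Cntnap2), 4.48 (4930507D05Rik) and 4.60 (Eloa). Those of Wif1 and Cntnap2 lay below every array median.

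Ms4a1, which encodes the B cell surface protein CD20, and Fcgr2b, the inhibitory receptor for IgG, were read as genes that respond to PAX5-WT, a choice made with their values known. Ms4a1 had a median of 3.89 in PAX5-P80R cells (3.54 to 4.32), 3.68 in PAX5-Δ2-6 cells (3.49 to 4.02), 9.25 in PAX5-G183V cells (7.93 to 9.46), 9.10 in PAX5-G183S cells (7.85 to 9.68), 9.23 in PAX5-WT cells (8.49 to 9.73) and 3.86 in MIR cells (3.23 to 4.08). The constructs with the highest mean Pax5 signal were those whose Ms4a1 range overlapped MIR, and the other 3 lay above MIR without overlap. Neither PAX5-P80R nor PAX5-Δ2-6 was called against PAX5-WT or PAX5-G183V for Pax5. A link between Pax5 and Ms4a1 was not tested. Ms4a1 minus MIR was 0.17 ± 0.31 for PAX5-P80R (SE; limma adjusted p over 17097 genes = 0.871) and -0.03 ± 0.31 for PAX5-Δ2-6 (limma adjusted p = 0.989). It was 4.98 ± 0.28, 4.99 ± 0.28 and 5.29 ± 0.28 for PAX5-G183V, PAX5-G183S and PAX5-WT, all called. In PAX5-G183V cells the Ms4a1 difference was larger in isolation batch 2 than in batch 1, by 1.55 (limma adjusted p = 0.00449). Ms4a1 signals went the other way in PAX5-WT cells, from 9.23 to 9.73 in batch 1 and from 8.49 to 8.52 in batch 2. In PAX5-G183S cells they ran from 9.10 to 9.68 in batch 1 and from 7.85 to 9.16 in batch 2.

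Fcgr2b parted PAX5-P80R from PAX5-Δ2-6. Its median was 5.92 in PAX5-P80R cells (5.34 to 6.42), 4.43 in PAX5-Δ2-6 cells (4.05 to 5.02), 8.82 in PAX5-G183V cells (8.00 to 8.99), 8.75 in PAX5-G183S cells (7.58 to 9.35), 9.60 in PAX5-WT cells (8.75 to 10.1) and 4.36 in MIR cells (4.12 to 5.58). In PAX5-P80R cells Fcgr2b rose by 1.39 ± 0.30 (SE; limma adjusted p = 0.00346), although its range met that of MIR. This call was lost on plate 2 alone, at 1.11, and with only the 2 groups compared, at 1.05. It also depended on the probe set: with the mean of all Fcgr2b probe sets the difference was 0.80 (limma adjusted p = 0.0587). In PAX5-Δ2-6 cells the difference was -0.08 ± 0.30 (SE; 95% interval -0.69 to 0.54). Cd79a, a B cell receptor subunit that PAX5 activates in B cells, differed from MIR by 0.12 ± 0.09 in PAX5-P80R, 0.22 ± 0.09 in PAX5-Δ2-6 and 0.01 ± 0.08 in PAX5-WT cells (SE), none called.

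**Figure D4:**
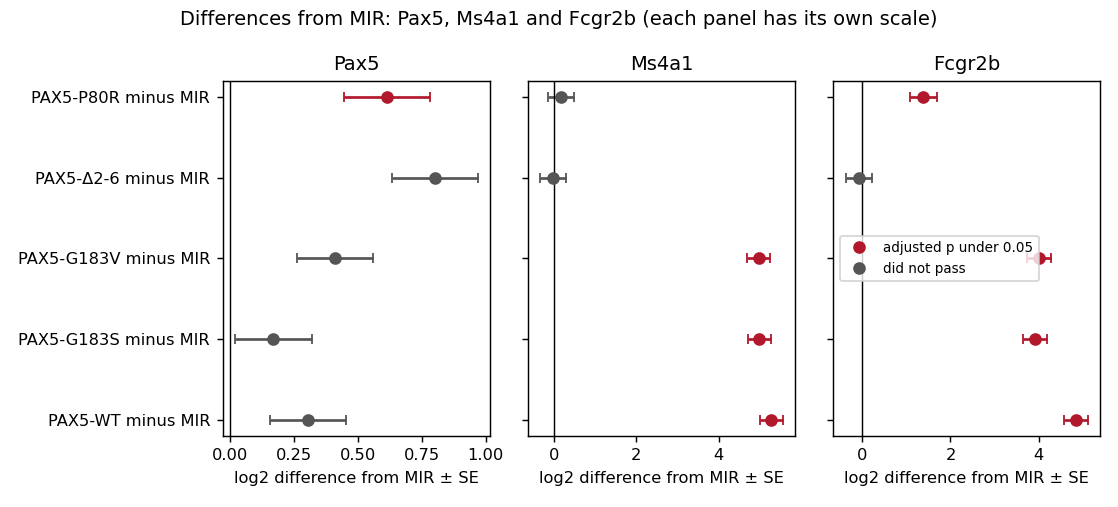
Difference from MIR on the log2 scale with its SE (horizontal axes, each panel with its own range) for Pax5, Ms4a1 and Fcgr2b, by construct (vertical axis). Red marks a limma adjusted p under 0.05. Pax5 is farthest from MIR in PAX5-Δ2-6 at 0.80, where Ms4a1 stands at -0.03 and Fcgr2b at -0.08.

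The other PAX family genes encode paired domain factors of other tissues, such as the eye (Pax6), muscle (Pax3 and Pax7), thyroid and kidney (Pax8) and pancreas (Pax4). With Pax5, 8 of the 9 family members were measured, by 16 probe sets, and Pax2 was not analysed here. By limma over all probe sets, 1 of the 16 was called in PAX5-P80R (Pax5), 1 in PAX5-G183V (Pax9) and 0 in PAX5-Δ2-6, PAX5-G183S and PAX5-WT. Of all probe sets, 2.55%, 5.73%, 0%, 3.73% and 3.85% were called, in that order of constructs. At an unadjusted p under 0.05 there were 3 in PAX5-P80R, 2 in PAX5-Δ2-6, 7 in PAX5-G183V, 2 in PAX5-G183S and 3 in PAX5-WT, where 13.3%, 7.07%, 18.7%, 15.1% and 13.7% of all probe sets passed the same limit. Pax9 is a factor of skeletal and tooth development. Against the same MIR arrays, it differed by more than 0 in all 5 constructs on both of its probe sets. On the brighter one it rose by 0.37 ± 0.10 in PAX5-G183V cells (SE; limma adjusted p = 0.0186), and 6 of 7 arrays lay above every MIR array. The dimmer one gave 0.28 ± 0.11 (SE; limma adjusted p = 0.122). The Pax9 call was lost in each isolation batch alone, at 0.23 in batch 2 and 0.44 in batch 1, and on plate 2 alone, at 0.43. In PAX5-P80R cells the brighter Pax9 probe set stood 0.35 ± 0.11 above MIR (SE; limma adjusted p = 0.0834), with no overlap of arrays, beside 0.891% of all probe sets.

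**Figure D5:**
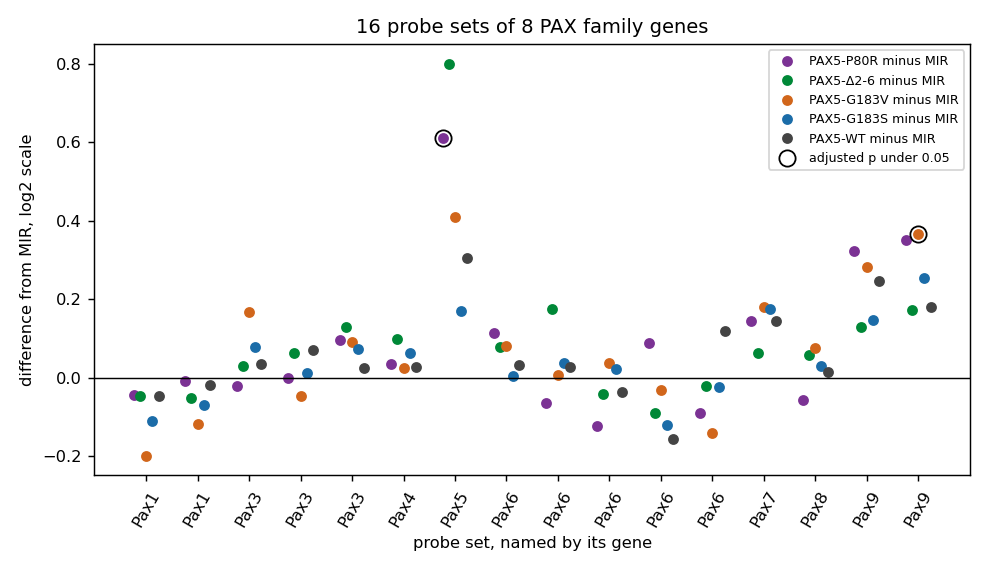
Difference from MIR on the log2 scale (vertical axis) for each of 16 probe sets of 8 PAX family genes (horizontal axis), 1 point per construct, with a ring where the limma adjusted p is under 0.05. Pax5 reaches 0.80 in PAX5-Δ2-6, and the ringed points are Pax5 in PAX5-P80R at 0.61 and Pax9 in PAX5-G183V at 0.37.

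Genes known to regulate Pax5 were measured by 12 of 13 members. Against MIR, 1 rose in PAX5-P80R, 0 in PAX5-Δ2-6, 3 in PAX5-G183V, 2 in PAX5-G183S and 1 in PAX5-WT, and 0 fell. Of all genes, 2.25%, 0%, 5.63%, 3.69% and 3.59% rose and 2.47%, 0%, 3.64%, 2.43% and 2.84% fell, in that order of constructs. In PAX5-Δ2-6 0 of the 12 had an unadjusted p under 0.05 in limma, beside 7.65% of all genes. The gene called in 4 constructs was Ikzf1, which encodes the lymphoid zinc finger factor Ikaros: it rose by 0.26 ± 0.04 in PAX5-P80R, 0.31 ± 0.04 in PAX5-G183V, 0.37 ± 0.04 in PAX5-G183S and 0.35 ± 0.04 in PAX5-WT cells (SE). The PAX5-P80R call was lost in isolation batch 1 alone (0.21), with only the 2 groups (0.26; limma adjusted p = 0.0758) and with the mean of the Ikzf1 probe sets (0.26; limma adjusted p = 0.0508). In PAX5-Δ2-6 cells Ikzf1 differed from MIR by -0.02 ± 0.04 (SE). The remaining calls, picked out after their values were seen, were Spi1 (0.31) and Stat5a (0.41) in PAX5-G183V and Irf8 (0.59) in PAX5-G183S. Ebf1, an activator of Pax5 in early B cells, averaged 3.62 over the arrays, below every array median.

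Genes whose proteins bind PAX5 were measured by 12 of 15 members, of which 1, 0, 4, 4 and 3 rose in PAX5-P80R, PAX5-Δ2-6, PAX5-G183V, PAX5-G183S and PAX5-WT, and 1 fell, in PAX5-P80R. In PAX5-Δ2-6 2 had an unadjusted p under 0.05, beside 7.65% of all genes. Calls over all genes were 2.25%, 0%, 5.63%, 3.69% and 3.59% higher in that order of constructs, and 2.47% lower in PAX5-P80R. Ets1, an ETS family factor that binds DNA together with PAX5, rose by 2.87 ± 0.22 in PAX5-P80R, 1.74 ± 0.20 in PAX5-G183V, 1.79 ± 0.20 in PAX5-G183S and 2.68 ± 0.20 in PAX5-WT cells (SE). In PAX5-Δ2-6 cells it stood at -0.29 ± 0.22 (SE; 95% interval -0.74 to 0.17). With the mean of all Ets1 probe sets the rises were 1.82 in PAX5-P80R, 0.87 in PAX5-G183V, 0.91 in PAX5-G183S and 1.44 in PAX5-WT, all called, and on plate 2 alone the PAX5-G183V call was lost (1.17; limma adjusted p = 0.0966). The PAX5-P80R difference of Ets1 was larger in isolation batch 2, by 1.44 (limma adjusted p = 0.0407). Rb1, the retinoblastoma protein, fell by 0.40 ± 0.09 in PAX5-P80R cells and rose by 0.38 ± 0.08 in PAX5-G183S and 0.34 ± 0.08 in PAX5-WT cells (SE). Its fall in PAX5-P80R was lost in isolation batch 1 alone, at -0.17, and on plate 2 alone, at -0.40, and MIR replicate 7 stood apart from the other MIR arrays at 8.12. The Rb1 rises were lost on plate 2 alone and in isolation batch 2 alone in both constructs, and in isolation batch 1 alone in PAX5-G183S. Tle1, a Groucho co-repressor, rose by 0.29 ± 0.08 in PAX5-G183V, 0.41 ± 0.08 in PAX5-G183S and 0.34 ± 0.08 in PAX5-WT cells (SE). These Tle1 calls were lost on plate 2 alone and in isolation batch 1 alone in all 3 constructs, in isolation batch 2 alone in PAX5-G183V and PAX5-WT, and with 3 transduction series in PAX5-G183V.

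Of 22 genes known to be activated by PAX5 in B cells, 20 were measured. In PAX5-P80R 1 rose and 2 fell, in PAX5-Δ2-6 0 moved (2 with an unadjusted p under 0.05 in limma, beside 7.65% of all genes), and in PAX5-G183V, PAX5-G183S and PAX5-WT 5, 6 and 5 rose and 1 fell in each. Over all genes, 2.25%, 0%, 5.63%, 3.69% and 3.59% rose and 2.47%, 0%, 3.64%, 2.43% and 2.84% fell, in that order of constructs. The median difference of the list was 0.04, -0.02, 0.07, 0.05 and 0.05 in that order of constructs, beside medians over all genes between 0.0024 and 0.0079. Slamf6, a SLAM family receptor, rose by 1.27 ± 0.36 in PAX5-G183V, 1.58 ± 0.36 in PAX5-G183S and 2.67 ± 0.36 in PAX5-WT cells (SE), the last by 2.69 more in isolation batch 2 than in batch 1 (limma adjusted p = 8.19e-05). On plate 2 alone the Slamf6 calls in PAX5-G183V (1.05) and PAX5-G183S (1.75) were lost. The PAX5-G183V call was also lost with 3 transduction series, at 0.48 (limma adjusted p = 0.394), and in isolation batch 2 alone, at 0.90. With the mean of the Slamf6 probe sets the rises were 0.55, 0.65 and 1.26, all called. Siglecg, an inhibitory lectin of B cells, rose by 1.84 ± 0.19, 1.97 ± 0.19 and 2.43 ± 0.18 in those constructs, with PAX5-G183S replicate 2 apart from its group at 7.53. Mycn, a MYC family factor, went against the list's name: it fell, at -1.02 ± 0.15 in PAX5-P80R, -1.48 ± 0.14 in PAX5-G183V, -2.22 ± 0.14 in PAX5-G183S and -2.01 ± 0.14 in PAX5-WT cells (SE). Its PAX5-P80R difference was nearer to 0 in isolation batch 2, by 0.65 (limma adjusted p = 0.0115). With the mean of all Mycn probe sets the falls were smaller, at -0.40, -0.50, -0.77 and -0.67 in those constructs, all called. Picked out after its values were seen, Id3, an inhibitor of E proteins, fell by 0.75 ± 0.21 in PAX5-P80R and rose by 1.00 ± 0.18 in PAX5-G183V, 0.76 ± 0.18 in PAX5-G183S and 0.59 ± 0.18 in PAX5-WT cells (SE).

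All 13 genes known to be repressed by PAX5 were measured. In PAX5-P80R 1 rose, in PAX5-Δ2-6 0 moved (1 with an unadjusted p under 0.05 in limma, beside 7.65% of all genes), and in PAX5-G183V, PAX5-G183S and PAX5-WT 1 rose and 2 fell in each. Over all genes, 2.25%, 0%, 5.63%, 3.69% and 3.59% rose and 2.47%, 0%, 3.64%, 2.43% and 2.84% fell, in that order of constructs. The gene that rose in all 4 was Flt3, a receptor kinase of early progenitors that PAX5 is known to repress, by 0.69 ± 0.14 in PAX5-P80R, 1.39 ± 0.13 in PAX5-G183V, 1.23 ± 0.13 in PAX5-G183S and 1.33 ± 0.13 in PAX5-WT cells (SE). Xbp1, a factor of plasma cell secretion, fell, at -0.15 ± 0.04, -0.16 ± 0.04 and -0.14 ± 0.04 in PAX5-G183V, PAX5-G183S and PAX5-WT cells (SE). These Xbp1 calls were lost on plate 2 alone in all 3 constructs, in isolation batch 1 alone in PAX5-G183V (-0.07) and PAX5-WT, in isolation batch 2 alone in PAX5-G183S and PAX5-WT, and without batch terms in PAX5-WT. Grap2, an adaptor of T cell signalling, fell, at -0.38 ± 0.09 in PAX5-G183S and -0.53 ± 0.09 in PAX5-WT cells (SE). Its falls were lost on plate 2 alone and in isolation batch 2 alone in both constructs, and with only the 2 groups in PAX5-G183S, and with the mean of the Grap2 probe sets they were -0.24 and -0.27, both called. The second fall in PAX5-G183V was Jchain, at -0.63, picked out after its value was seen. Of the markers of other cell types, also picked out so, Elane stood 0.22 ± 0.07 from MIR in PAX5-P80R cells and Cd8a -0.26 ± 0.08 in PAX5-G183V cells (SE), and their part in these results was not tested.

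Of the 6 protein-coding genes nearest to Pax5 on chromosome 4, 4 were measured. By limma 0 of the 4 were called in PAX5-P80R, PAX5-Δ2-6, PAX5-G183V and PAX5-G183S, with 1 at an unadjusted p under 0.05 in each, a limit that 16.1%, 7.65%, 22.4% and 18.1% of all genes passed. In PAX5-WT, where 3.59% of all genes rose, 1 was called. That was Grhpr, a glyoxylate reductase encoded 271 kb from Pax5, which rose by 0.19 ± 0.06 (SE; limma adjusted p = 0.0458), and the call was lost under 8 other settings. The nearest, Zcchc7, a factor of nuclear RNA decay encoded 45.9 kb away, stood -0.24 ± 0.11 from MIR in PAX5-P80R, -0.26 ± 0.11 in PAX5-Δ2-6, -0.23 ± 0.10 in PAX5-G183V, -0.10 ± 0.10 in PAX5-G183S and -0.03 ± 0.10 in PAX5-WT cells (SE). None of these passed. All were opposite in sign to the Pax5 difference, and all of them share the MIR arrays. Melk, a mitotic kinase 160 kb away, and Gne, an enzyme of sialic acid synthesis 441 kb away, differed from MIR by at most 0.10 in size.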

How the data were processed

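Each array has 1 deposited log2 signal for each probe set, which the authors made with RMA per the submitters' processing notes. RMA subtracts background, makes the arrays' distributions alike and summarises probes, and it can compress differences at low signal. No version of it is given in the sources used here. The values were used as deposited. Probe sets were named from the platform annotation: 28898 name 1 gene, 551 several and 15692 none.

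Groups, plates, isolation batches and transduction numbers are per the labels. All 40 arrays were fitted in limma 3.58.1 (R 4.3.3, statmod 1.5.0) with terms for 6 groups, plate and isolation batch. Benjamini-Hochberg adjustment ran over 45141 probe sets for Pax5 and the PAX family, and over 17097 genes for the rest, each by its probe set with the highest mean. A call is an adjusted p under 0.05. Precision is limited by how many arrays a group has. The fit was tested on simulated data.

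The Pax5 probe set and the gene lists were chosen with earlier results of these data known. Named were all measured PAX family members, the measured neighbours, Cd79a, Ms4a1 and Fcgr2b, and up to 3 genes per other list with the largest called PAX5-WT minus MIR difference. Some items are not reported here. Alternatives dropped or changed the batch terms, the arrays, the scaling, the moderation and each single array.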

Additional observations from a re-analysis of the deposited data

Results flagged for a closer look

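No Pax5 group had an array that stood apart. Of 150 groups of 25 named genes, 7 did by Dixon's ratio of gap to range, which chance gives in about 1 of 20 groups. Pax6 was 4.66 in PAX5-G183S replicate 3 (nearest array 4.39) and 4.13 in MIR replicate 1 (nearest 4.38). Pax8 was 3.98 in PAX5-P80R replicate 5 (nearest 3.54), and Pax9 was 6.27 in PAX5-G183S replicate 7 (nearest 5.79). Cd79a was 4.60 in PAX5-G183S replicate 7 (nearest 4.22), Rb1 was 8.12 in MIR replicate 7 (nearest 7.92) and Siglecg was 7.53 in PAX5-G183S replicate 2 (nearest 7.03).

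For 4 named genes the difference from MIR changed between isolation batches by a test of that change (limma, adjusted over all genes). In PAX5-P80R, isolation batch 2 exceeded isolation batch 1 by 1.44 for Ets1 (limma adjusted p = 0.0407) and by 0.65 for Mycn (limma adjusted p = 0.0115). The change was 1.55 for Ms4a1 in PAX5-G183V (limma adjusted p = 0.00449) and 2.69 for Slamf6 in PAX5-WT (limma adjusted p = 8.19e-05).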

How the results depend on the processing

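Over 15 pairs of constructs, 238 of 240 values of the Pax5 difference under other settings, apart from left-out arrays, kept their direction. Some settings leave the Pax5 estimate as it was, so their values kept direction by construction. These are the filter on dim probe sets, the other moderation, the mean of a gene's probe sets and 1 probe set a gene. The 2 that turned were PAX5-G183S minus PAX5-WT (0.078) and PAX5-P80R minus PAX5-Δ2-6 (0.025), both in isolation batch 1 alone. PAX5-P80R minus MIR lost its call without batch terms (0.49), with batches as a random block (0.53) and on plate 2 alone (0.61). It was also lost in isolation batch 1 alone (0.55), in isolation batch 2 alone (0.66) and with only the 2 groups (0.62). With 1 array left out the difference ran from 0.53 to 0.70. Exact permutation (0.62) gave this pair the smallest p it allowed. That p was adjusted over the 15 pairs, so its result is not counted as a lost call. PAX5-Δ2-6 minus PAX5-G183S lost its call without batch terms (0.50) and on plate 2 alone (0.60). It was also lost in isolation batch 1 alone (0.14) and with only the 2 groups (0.59). With 1 array left out the difference ran from 0.48 to 0.72. By exact permutation it was 0.63 with an exact p of 0.1, where the smallest possible p is 0.025. Calls were gained with 3 transduction series by PAX5-Δ2-6 minus MIR (0.97), PAX5-G183V minus MIR (0.56), PAX5-Δ2-6 minus PAX5-WT (0.67) and PAX5-P80R minus PAX5-G183S (0.59). With only the 2 groups, PAX5-G183V minus MIR gained a call (0.42). It also passed by exact permutation (0.42), with a p adjusted over the 15 pairs rather than over all probe sets. With 1 array left out, PAX5-Δ2-6 minus PAX5-WT ran from 0.35 to 0.59, and without PAX5-Δ2-6 replicate 3 it passed. Isolation batch 2 minus 1 ran from -0.0033, without PAX5-Δ2-6 replicate 5, to 0.084, without PAX5-G183S replicate 5. The change of PAX5-P80R minus MIR between isolation batches ran from -0.067, without PAX5-P80R replicate 5, to 0.37. For PAX5-WT that change ran from -0.13 to 0.13, below 0 without PAX5-WT replicate 2, 4 or 6 or MIR replicate 4 or 7, and was -0.053 with array weights. Adjusted over genes, with 1 probe set a gene, a setting chosen after seeing the data, PAX5-P80R minus MIR had a limma adjusted p of 0.0248. Why these values moved was not tested.

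Same-numbered replicates did not deviate together (median r of -0.04 over 96 pairs, 10 of them over 0.1). Other-numbered pairs had a median r of 0.0087 (570 pairs, 70 of them over 0.1). This check gave no sign that the numbers pair samples. Replicate numbers partly follow plate and isolation batch, so it cannot settle the question. With a replicate block, PAX5-P80R minus MIR was 0.50 (limma adjusted p = 0.487) and PAX5-Δ2-6 minus PAX5-G183S was 0.54 (limma adjusted p = 0.328), neither called, and list genes called in PAX5-P80R were 3. In PAX5-P80R it also ended the calls of Fcgr2b (1.35), Rb1 (-0.23) and Flt3 (0.63), and in PAX5-WT that of Grhpr (0.19). Plate 2 minus plate 1 for Pax5 was -0.10 with the block (limma adjusted p = 0.953).

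Of 67 list genes, 8 were called in PAX5-P80R, 0 in PAX5-Δ2-6, 17 in PAX5-G183V, 16 in PAX5-G183S and 14 in PAX5-WT against MIR. Over all genes, 2.25%, 0%, 5.63%, 3.69% and 3.59% rose and 2.47%, 0%, 3.64%, 2.43% and 2.84% fell, in that order of constructs. On plate 2 alone the list genes called were 5 in PAX5-P80R, 4 in PAX5-G183V, 5 in PAX5-G183S and 7 in PAX5-WT, from fewer arrays. Isolation batch 1 alone gave 4 in PAX5-P80R and 8 in PAX5-G183V, and isolation batch 2 alone 1 in PAX5-Δ2-6, 9 in PAX5-G183S and 7 in PAX5-WT. With only the 2 groups PAX5-P80R had 4, and with 3 transduction series PAX5-Δ2-6 had 4. With 1 array left out, PAX5-P80R had 5 to 10, with 5 without PAX5-P80R replicate 5 or MIR replicate 3. Of 588 values of 42 called differences of named genes under other settings, 533 kept their call, 55 lost it and 0 turned. The filter on dim probe sets and the other moderation leave a difference as it was, so those values could not turn. Signal over background was not used here.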
